A study of Mus musculus with 24 samples.

Results

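Serotonin reaches the hippocampus (HIP) and the entorhinal cortex (EC) through axons of raphe neurons and acts there on a large family of receptors. Receptors of the Htr1 and Htr5 families couple to Gi/o proteins and lower cyclic AMP or open potassium channels, those of the Htr2 family couple to Gq and phospholipase C, Htr4, Htr6 and Htr7 couple to Gs and raise cyclic AMP, and Htr3 receptors are ion channels. The genes described here are the 10 serotonin receptor genes Htr1a, Htr1b, Htr1f, Htr2a, Htr2c, Htr3a, Htr4, Htr5a, Htr6 and Htr7, taken by name out of 55385 genes in the count tables. All 10 passed the filter on low counts in every comparison.

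RNA was sequenced from HIP and EC of adult male mice of a mixed B6C3B background, with both regions taken from each of 12 animals. The Ts65Dn group (6 mice) carried a minichromosome with an additional copy of a segment of chromosome 16 whose genes have human chromosome 21 counterparts, and also of a part of chromosome 17 that has no such counterparts. The wt group (6 mice) did not carry the minichromosome. Each of the 24 libraries is 1 region of 1 mouse, and none of the 10 genes lies in the additional segments: Htr1f is on chromosome 16, but at 64924729 to 65105854, before the start of the segment at 84717576. The library totals ran from 23128589 to 40476492 counts. CA field markers (7 of 9 genes) and dentate granule cell markers (6 of 7) were higher in HIP of wt mice, and upper cortical and entorhinal markers (7 of 9) were higher in EC. The other 2 CA field markers were higher in EC, and 1 upper cortical marker was higher in HIP. Genes of the chromosome 16 segment had a median ratio to wt of 1.46 to 1.53 in 10 of the 12 libraries of Ts65Dn mice. In both regions of the mouse labelled Ts65Dn replicate 3 that ratio was 1.01, so its libraries go against their label. The tested differences of named genes that rest on the Ts65Dn group are also given without this mouse, apart from that of Kcnj6 in HIP. Levels and ranges are given over all 6 Ts65Dn mice.

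The start regions of 2 genes with opposite regional patterns are printed here, because Htr1a was higher in HIP and Htr2a was higher in EC in both genotypes. Each is the RefSeq window from 250 bases before to 50 bases after the transcript start on GRCm38.p6, on the plus strand. Capitals mark the GC box, GGGCGG or its reverse complement. Both hold 1 match, and neither holds the letters TATAAA on either strand. The same was true of CCAAT on either strand. Neither window held the core of a cyclic AMP response element, searched as TGACG on both strands.
Htr1a, chr13:105443443-105443742: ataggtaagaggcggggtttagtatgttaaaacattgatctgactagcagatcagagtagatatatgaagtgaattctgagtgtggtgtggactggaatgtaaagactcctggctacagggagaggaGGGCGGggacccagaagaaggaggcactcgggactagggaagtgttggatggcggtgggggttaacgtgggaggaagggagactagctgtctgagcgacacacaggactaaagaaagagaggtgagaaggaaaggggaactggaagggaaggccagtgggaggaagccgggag
Htr2a, chr14:74640624-74640923: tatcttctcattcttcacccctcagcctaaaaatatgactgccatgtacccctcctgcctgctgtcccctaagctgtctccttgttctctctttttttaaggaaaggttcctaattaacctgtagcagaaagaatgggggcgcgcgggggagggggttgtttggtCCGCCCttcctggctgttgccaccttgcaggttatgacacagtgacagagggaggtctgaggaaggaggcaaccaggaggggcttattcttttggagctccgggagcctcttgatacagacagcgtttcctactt
A GC box was present in 35.7% of the 32851 promoter windows of the table, the letters CCAAT in 37.4%, a cyclic AMP response element core in 20.8% and TATAAA in 13.6%. Of the 10 genes, Htr3a had no window in the table, and Htr4 was left out of the search. The windows of the 8 genes searched, with 2 for Htr6, ran from 52.0% GC for Htr2a to 81.0% GC for Htr7. The median over all windows was 52.7%. The Htr7 window held 46 CpG dinucleotides, that of Htr2c held 5, and the median of all windows was 7. None of the windows searched held TATAAA, and that of Htr7 was the only one of them with the cyclic AMP response element core.

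Levels were first set in order within each group. Because a longer transcript gives more reads, levels of different genes are compared as CPM (the reads of a gene scaled to the size of its library, with trimmed mean of M values factors) per kilobase of the union of exons. In HIP of wt mice, Htr1a, the main inhibitory serotonin receptor of pyramidal neurons and the autoreceptor of raphe neurons, had the highest mean level at 8.54 ± 0.885 CPM per kilobase (SD, n = 6). Htr2c followed at 5.88 ± 2.26, and Htr3a, the ion channel found on a class of interneurons, at 4.36 ± 0.934. Htr2a, Htr5a, Htr4, Htr7 and Htr1b lay between 3.69 and 2.72, Htr6 had 1.23 ± 0.279, and Htr1f was lowest at 0.909 ± 0.160.

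In that order every pair of neighbours overlapped in range over the 6 mice apart from Htr1b (lowest library 2.34) and Htr6 (highest library 1.64). In EC of wt mice the order changed at both ends. Htr2a, the excitatory receptor through which serotonergic hallucinogens act, was first at 9.54 ± 0.910 CPM per kilobase, and its lowest library (8.03) lay above the highest one of Htr5a (6.91), which was second. Htr4 was last at 0.218 ± 0.101, and its highest library (0.383) lay below the lowest one of Htr1f (0.906). Htr7 and Htr1b, and Htr1b and Htr6, were also apart, and the other neighbours overlapped.

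The same gene was first and the same gene last in the Ts65Dn mice. In HIP of Ts65Dn mice Htr1a had 8.68 ± 1.21 CPM per kilobase and Htr1f had 0.887 ± 0.152. Only Htr1b and Htr6 were apart there, with 2.17 as the lowest and 2.14 as the highest library. In EC of Ts65Dn mice Htr2a had 9.03 ± 1.30 and Htr4 had 0.297 ± 0.0700, and the pairs apart were Htr7 with Htr1b and Htr1f with Htr4. The place of Htr2c depended on the length used. Its exons come to 9328 bases in all transcripts together and to 4883 in the longest one, and per kilobase of the longest transcript Htr2c was first in all 4 groups, at 9.60 to 11.5.

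**Figure D1:**
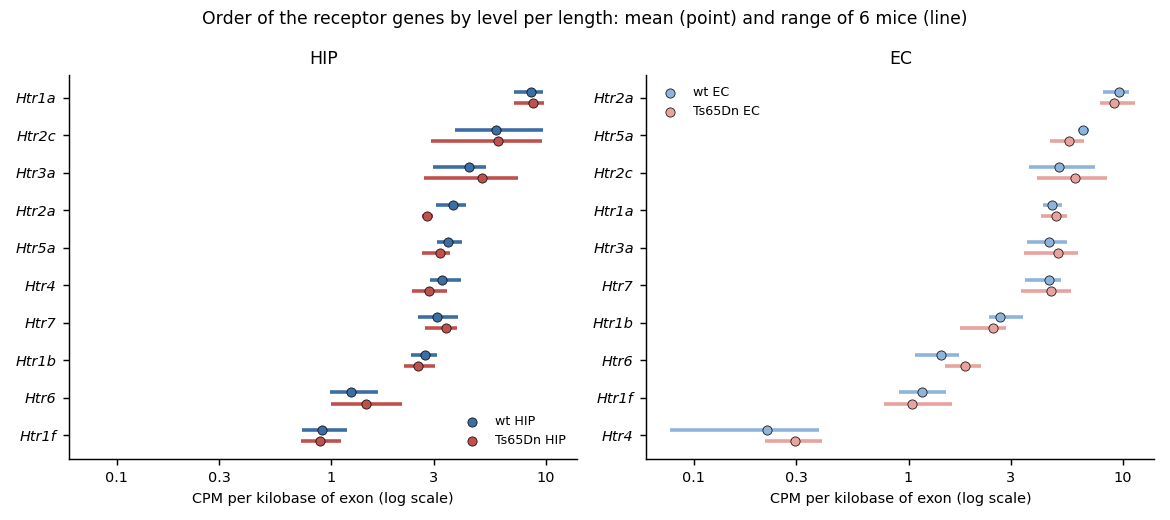
Level of each serotonin receptor gene in CPM per kilobase of exon (log axis), in HIP (left) and EC (right), with genes in the order of the wt means. Points are means and lines the range of 6 mice in each genotype. Htr1a led in HIP and Htr2a in EC, and Htr4 was last in EC at 0.218 in wt and 0.297 in Ts65Dn.

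The comparison of HIP with EC asked where each receptor is transcribed, and was made within mice. In each genotype 5 of the 10 genes were called, that is, they had an adjusted p below 0.05 in the quasi-likelihood test of edgeR. Htr4 and Htr1a were higher in HIP, and Htr2a, Htr5a and Htr7 were higher in EC. These counts stand against a large background. In wt mice 31.0% of all genes tested were higher in HIP and 30.3% were higher in EC. In Ts65Dn mice the shares were 26.6% and 25.7%. The median log2 fold change (HIP over EC) of the 10 genes was -0.14 in wt and -0.15 in Ts65Dn, and that of all genes tested was 0.00 in both. In bulk tissue, more cells of a type and more RNA per cell cannot be told apart.

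Htr4, a Gs-coupled receptor known for raising the excitability of pyramidal neurons (Ensembl ENSMUSG00000026322, chromosome 18, 62324204 to 62496577, plus strand), had the widest regional difference of the 10. In HIP of wt mice its 6 libraries ran from 14.1 to 19.7 CPM with a median of 15.7, and in EC from 0.380 to 1.88 with a median of 1.01. No EC library came near the lowest HIP library. The level was 15.3-fold higher in HIP (log2 fold change 3.94, SE 0.175, adjusted p = 5.10e-08), with HIP above EC in 6 of 6 mice. In Ts65Dn mice HIP ran from 11.7 to 17.0 CPM and EC from 1.05 to 1.94, a 9.49-fold difference (log2 fold change 3.25, SE 0.112, adjusted p = 2.08e-08). Between 10 and 58 reads per library stood behind the EC values, so the counting error of the fold is larger than for the other genes called.

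Htr1a (ENSMUSG00000021721, chromosome 13, 105443639 to 105448122, plus strand, 1 coding exon) ran from 31.9 to 43.5 CPM in HIP of wt mice with a median of 38.9, and from 19.0 to 23.4 in EC with a median of 20.9. The regions did not overlap. The level was 1.81-fold higher in HIP (log2 fold change 0.86, SE 0.0784, adjusted p = 5.74e-06), in 6 of 6 mice. In Ts65Dn mice it was 1.77-fold higher (log2 fold change 0.82, SE 0.0848, adjusted p = 2.18e-05), again in 6 of 6 mice and without overlap, from 31.8 to 44.0 CPM in HIP and from 18.7 to 24.5 in EC.

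Htr2a (ENSMUSG00000034997, chromosome 14, 74640840 to 74709494, plus strand, 3 coding exons) went the other way. Its 6 wt libraries ran from 17.2 to 23.8 CPM in HIP with a median of 20.7, and from 45.0 to 59.6 in EC with a median of 53.3. Each mouse had more in EC. The level was 2.60-fold higher in EC (log2 fold change -1.38 for HIP over EC, SE 0.0713, adjusted p = 1.19e-07). In Ts65Dn mice it was 3.23-fold higher in EC (log2 fold change -1.69, SE 0.0777, adjusted p = 9.46e-08), with 14.8 to 16.7 CPM in HIP and 43.7 to 63.5 in EC.

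Htr5a, a Gi/o-coupled receptor (ENSMUSG00000039106, chromosome 5, 27842149 to 27855088, plus strand), ran from 16.8 to 21.97 CPM in HIP of wt mice with a median of 18.8 and from 33.3 to 37.1 in EC with a median of 35.1. The EC libraries formed the tightest group of this gene, and no library of one region reached the other. The level was 1.88-fold higher in EC (log2 fold change -0.91, SE 0.0543, adjusted p = 2.96e-07). In Ts65Dn mice it was 1.75-fold higher in EC (log2 fold change -0.80, SE 0.0569, adjusted p = 1.50e-06), from 14.2 to 19.2 CPM in HIP and from 24.7 to 35.5 in EC.

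Htr7, a Gs-coupled receptor linked to circadian and thalamic functions (ENSMUSG00000024798, chromosome 19, 35958734 to 36057507, minus strand), differed less. In wt mice it ran from 8.67 to 13.3 CPM in HIP and from 11.9 to 17.5 in EC, and the ranges overlapped, although EC was higher in each mouse. The level was 1.46-fold higher in EC (log2 fold change -0.55, SE 0.116, adjusted p = 0.00201). In Ts65Dn mice it was 1.33-fold higher (log2 fold change -0.42, SE 0.117, adjusted p = 0.0124), with HIP higher in 1 of 6 mice, and the call was lost without Ts65Dn replicate 5 (adjusted p = 0.0537). Ranges of HIP and EC were apart for 4 of the 10 genes in each genotype, Htr1a, Htr2a, Htr4 and Htr5a, against 34.2% of all genes tested in wt and 27.1% in Ts65Dn.

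Without the mouse labelled Ts65Dn replicate 3, the log2 fold changes in Ts65Dn were 3.21 for Htr4, 0.86 for Htr1a, -1.74 for Htr2a, -0.79 for Htr5a and -0.43 for Htr7, and each was called.

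**Figure D2:**
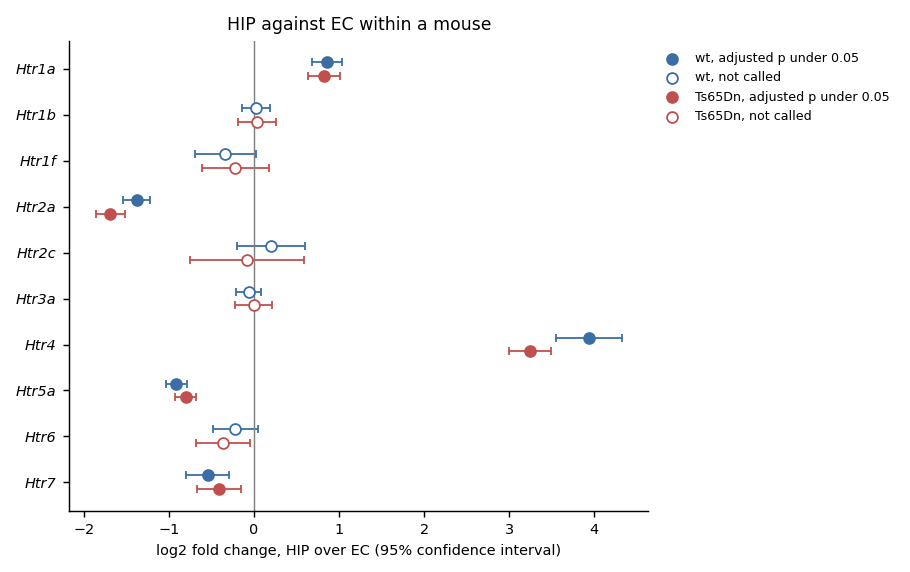
Log2 fold change of HIP over EC for each serotonin receptor gene in wt and Ts65Dn mice, with 95% confidence intervals from the paired edgeR fit (6 mice each). Filled points passed an adjusted p of 0.05. Htr4 stands at 3.94 in wt and 3.25 in Ts65Dn, Htr1a lies above 0, and Htr2a, Htr5a and Htr7 lie below it.

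The other 5 genes did not pass the test between regions in either genotype. For Htr1b, the Gi/o-coupled receptor of axon terminals, the 95% confidence interval of the log2 fold change was -0.14 to 0.19 in wt and -0.19 to 0.26 in Ts65Dn. For Htr3a it was -0.21 to 0.08 and -0.22 to 0.21. A gene on the opposite strand overlaps each of these 2 (D430036J16Rik for Htr1b, Gm32335 for Htr3a), and the strand setting of the counting is not given in the sources used here. D430036J16Rik had a mean of 1.38 CPM in HIP and 2.35 in EC of wt mice, and 1.27 and 2.18 in Ts65Dn mice. Gm32335 had at most 1 read in a library. The part of the overlap in the Htr1b and Htr3a values was not tested.

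Htr1f, a Gi/o-coupled receptor and the target of a class of migraine drugs, had 2.35 ± 0.412 CPM in HIP and 2.97 ± 0.663 in EC of wt mice (log2 fold change -0.34, 95% confidence interval -0.70 to 0.02, adjusted p = 0.0936). HIP was above EC in 0 of 6 wt mice and in 1 of 6 Ts65Dn mice. In wt replicates 2, 3 and 6 the regions were nearly equal, at 2.323, 2.316 and 2.464 CPM in HIP and 2.361, 2.336 and 2.464 in EC. Htr6, a Gs-coupled receptor known from the striatum, had 3.41 ± 0.935 CPM in HIP and 4.30 ± 0.544 in EC of Ts65Dn mice (log2 fold change -0.37, SE 0.143, adjusted p = 0.0527). When 1 mouse was left out the Htr6 value ran from -0.49 (adjusted p = 0.0131, without Ts65Dn replicate 4) to -0.28 (adjusted p = 0.151, without the mouse labelled Ts65Dn replicate 3), and it was called in 1 of these 6 fits.

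Htr2c, a Gq-coupled receptor whose transcript undergoes RNA editing and which is very abundant in the choroid plexus (ENSMUSG00000041380, chromosome X, 146962513 to 147197277, plus strand), had the largest SD relative to its mean of the 10 in HIP in both genotypes. Its 6 wt libraries in HIP stood at 41.6, 90.6, 49.96, 69.2, 35.1 and 42.8 CPM for replicates 1 to 6, and the 6 Ts65Dn libraries at 89.8, 47.0, 82.6, 27.1, 56.6 and 32.9. Both genotypes span almost the same range. In EC it ran from 34.0 to 68.8 CPM in wt and from 37.1 to 78.7 in Ts65Dn, so that the regions overlapped (log2 fold change 0.20 in wt, adjusted p = 0.366; -0.08 in Ts65Dn, adjusted p = 0.838). Without the mouse labelled Ts65Dn replicate 3, the log2 fold changes between regions in Ts65Dn were -0.33 for Htr2c, -0.20 for Htr1f, -0.05 for Htr1b and 0.06 for Htr3a, and none of these 4 was called.

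The summed level of 13 choroid plexus markers moved with Htr2c in HIP. The sum ran from 450.5 to 7624 CPM in HIP of wt mice and from 359.8 to 7895 in that of Ts65Dn mice, and from 225.3 to 319.2 in the 12 EC libraries. Most of the EC sum was 1 gene of the list, Enpp2, with a mean of 268.4 CPM in wt and 234.3 in Ts65Dn. Ttr, the defining transcript of the choroid plexus, ran from 19.2 to 4805 CPM in HIP. Across the 6 wt mice the log2 levels of Htr2c and of the sum had a Pearson r of 0.914 (exact permutation p = 0.00833) and a Spearman rho of 0.943 (exact permutation p = 0.0167). Across the 6 Ts65Dn mice r was 0.929 (exact permutation p = 0.00972) and rho was 0.943 (exact permutation p = 0.0167).

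Over the 20 relations computed, each of the 10 genes in both groups, the adjusted p was 0.0972 for both values of r and 0.167 for both values of rho. Without the 2 libraries farthest from the median of the sum, r was 0.961 in wt and 0.719 in Ts65Dn. With 6 mice the smallest two-sided p of this test is 0.00139. The 3 HIP libraries with the lowest sums (359.8, 450.5 and 497.6 CPM) had the lowest Htr2c levels in HIP (27.1, 35.1 and 32.9 CPM). The part of the choroid plexus in the Htr2c values was not tested.

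**Figure D3:**
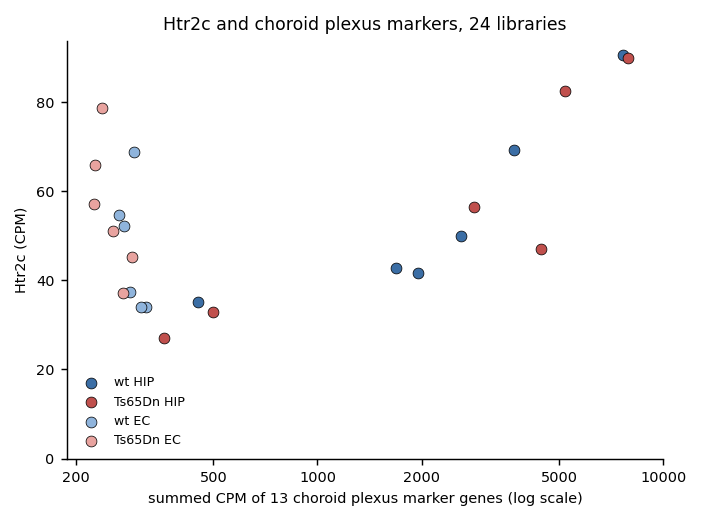
Htr2c in CPM against the summed CPM of 13 choroid plexus marker genes (log axis) in 24 libraries, 1 point per library. In HIP the sum spans 359.8 to 7895 and Htr2c spans 27.1 to 90.6, whereas in EC the sum stays between 225.3 and 319.2 while Htr2c spans 34.0 to 78.7.

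The comparison of Ts65Dn with wt asked which receptors differ between trisomic and control mice. In HIP 1 of the 10 genes was called, Htr2a, which was lower in Ts65Dn. Over all genes tested, 1.04% were called in HIP and 0.501% were called lower. DESeq2 called Htr2a as well, against 3.81% of all genes tested. In EC none of the 10 was called, against 2.50% of all genes tested. At an unadjusted p under 0.05 there were 2, Htr5a and Htr6, against 19.0% of all genes tested. DESeq2 called 1, against 6.69%.

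In HIP the Htr2a level was 22.6, 17.2, 23.8, 19.1, 20.02 and 21.4 CPM in the wt replicates 1 to 6, and 15.4, 15.4, 16.7, 15.3, 15.95 and 14.8 in the Ts65Dn replicates. All 6 Ts65Dn libraries lay below all 6 wt libraries, and the highest of them was the library labelled Ts65Dn replicate 3. The level was 1.33-fold lower in Ts65Dn (log2 fold change -0.41, SE 0.0748, adjusted p = 0.0235). It was the only one of the 10 genes whose groups did not overlap, against 1.67% of all genes tested.

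The call of Htr2a in HIP was near the threshold. It was lost in 6 of the 12 fits without 1 mouse (without wt replicate 3, 5 or 6 or Ts65Dn replicate 1, 4 or 6), where the adjusted p was 0.0503 to 0.065 and the log2 fold change -0.42 to -0.36. Without the mouse labelled Ts65Dn replicate 3 it was called with an adjusted p of 0.0156. After GC and length trends had been taken out, which was added once the data had been seen, the log2 fold change was -0.33 and the adjusted p was 0.0898. Cortical markers are given beside it, since Htr2a was higher in EC. In HIP 0 of 9 upper cortical and entorhinal markers and 0 of 10 claustrum and deep layer markers were called between the genotypes by edgeR. At an unadjusted p under 0.05 there were 2 of each list, against 14.8% of all genes tested. The summed level of the first list ran from 505.4 to 690.2 CPM in wt and from 479.5 to 599.4 in Ts65Dn, and that of the second from 347.0 to 432.5 and from 334.6 to 381.4. Their part in the Htr2a value was not tested.

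In EC the Htr2a level ran from 45.0 to 59.6 CPM in wt and from 43.7 to 63.5 in Ts65Dn, and the groups overlapped (log2 fold change -0.09, 95% confidence interval -0.29 to 0.11, adjusted p = 0.654). Whether the genotype difference of a gene was the same in both regions was tested directly by the interaction of genotype and region. By edgeR 0 of 18109 genes passed (0%), with 742 at an unadjusted p under 0.05, and DESeq2 also called 0. For Htr2a the interaction was -0.31 on the log2 scale (SE 0.109, unadjusted p = 0.0117, adjusted p = 0.9998). For Htr4 it was -0.70 (SE 0.233, unadjusted p = 0.00897, adjusted p = 0.9998). The genotype differences of these 2 genes were thus not shown to differ between HIP and EC. Without the mouse labelled Ts65Dn replicate 3 the interactions were -0.36 for Htr2a (adjusted p = 0.746) and -0.73 for Htr4 (adjusted p = 0.756), and the log2 fold change of Htr2a in EC was -0.06.

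Htr5a in EC was the member nearest to a call in that region. The wt libraries ran from 33.3 to 37.1 CPM with a median of 35.1, and the Ts65Dn libraries from 24.7 to 35.5 with a median of 30.7. The highest Ts65Dn value belonged to the library labelled Ts65Dn replicate 3. The 5 other Ts65Dn libraries, at 24.7 to 30.9 CPM, lay below every wt library. Over all 12 mice the log2 fold change was -0.24 (SE 0.0725, unadjusted p = 0.0055, adjusted p = 0.0956). Without the mouse labelled Ts65Dn replicate 3 it was -0.29 and was called (adjusted p = 0.0345), as it was by DESeq2 over all mice (adjusted p = 0.034).

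Htr6 in EC stood at 2.50 to 4.01 CPM in wt and 3.48 to 5.10 in Ts65Dn, with overlap (log2 fold change 0.37, SE 0.124, unadjusted p = 0.00944, adjusted p = 0.123). Its highest EC library was the one labelled Ts65Dn replicate 3, and without that mouse the log2 fold change was 0.32 (adjusted p = 0.185). With GC content and length removed it was 0.19 (adjusted p = 0.499). Striatal markers are given beside it, because Htr6 is known from the striatum. Their summed level ran from 219.6 to 246.2 CPM in EC of wt mice and from 222.7 to 348.2 in EC of Ts65Dn mice, and 1 of the 9 tested there was called, Drd2, the dopamine D2 receptor (log2 fold change 1.56, adjusted p = 0.0254). At an unadjusted p under 0.05 there were 4 of 9. Over all genes tested in EC 2.50% were called and 19.0% had an unadjusted p under 0.05. The median log2 fold change of the list was 0.64, beside 0.00 over all genes tested. The Drd2 call was kept in 11 of 18 other settings. It was kept without the mouse labelled Ts65Dn replicate 3 (1.70, adjusted p = 0.0094) and lost without Ts65Dn replicate 1 or 2 or wt replicate 1, 3 or 4 (1.42 to 1.51, adjusted p = 0.0518 to 0.0657). The part of these markers in the Htr6 value was not tested. None of the 10 receptor genes had groups that did not overlap in EC, against 2.46% of all genes tested.

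For the other members the intervals of the genotype difference bound what these mice could show. In HIP the 95% confidence intervals of the log2 fold change of Htr1a (-0.18 to 0.22), Htr5a (-0.31 to 0.06), Htr1b (-0.32 to 0.11) and Htr4 (-0.44 to 0.02) were the narrowest after that of Htr2a. Those of Htr3a (-0.22 to 0.65), Htr6 (-0.17 to 0.64) and Htr2c (-0.62 to 0.67) left room for wider differences. In EC the interval of Htr1a was -0.11 to 0.21, that of Htr7 was -0.25 to 0.28 and that of Htr2c was -0.18 to 0.67. Htr4 in EC, with 0.380 to 1.88 CPM in wt and 1.05 to 1.94 in Ts65Dn, had the widest interval there, at -0.15 to 1.04. When the mouse labelled Ts65Dn replicate 3 was left out, the log2 fold changes ran from -0.17 to 0.34 over the 9 genes other than Htr2a in HIP, and from -0.16 to 0.52 over the 7 genes other than Htr2a, Htr5a and Htr6 in EC, and none was called.

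**Figure D4:**
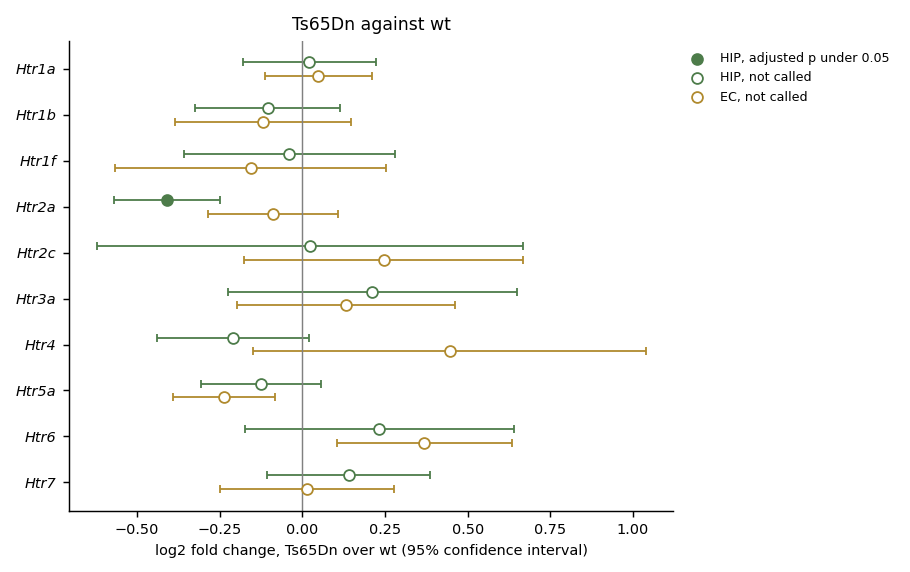
Log2 fold change of Ts65Dn over wt for each serotonin receptor gene in HIP and EC, with 95% confidence intervals from edgeR (6 mice in each group). Filled points passed an adjusted p of 0.05. Htr2a in HIP, at -0.41, is the only filled point.

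**Figure D5:**
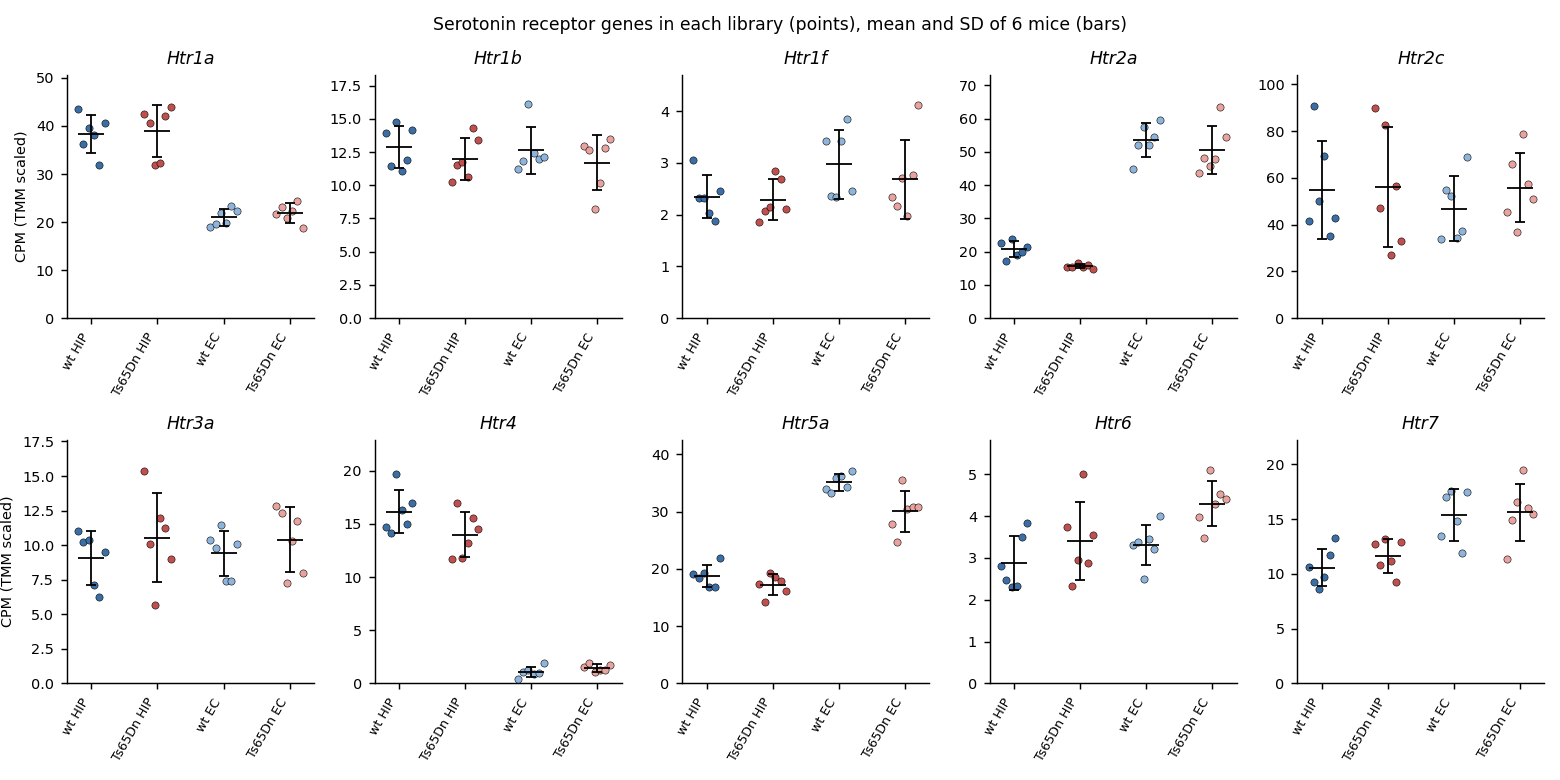
CPM of the 10 serotonin receptor genes in each library, with 1 point per mouse and the mean and SD of 6 mice in each group. Htr4 is near 0 in EC, Htr2a and Htr5a are higher in EC, Htr1a is higher in HIP, and the 6 Ts65Dn points of Htr2a in HIP (14.8 to 16.7 CPM) lie under the wt points (17.2 to 23.8 CPM).

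Of the 4 other serotonin receptor genes examined, Htr5b had the highest level. Htr5b, a Gi/o family receptor that is a pseudogene in humans, had 6.53 ± 2.99 CPM in HIP and 0.875 ± 0.174 in EC of wt mice (log2 fold change 2.83, adjusted p = 1.83e-06), and was also higher in HIP of Ts65Dn mice (log2 fold change 1.65, adjusted p = 0.00321, and 1.34 without the mouse labelled Ts65Dn replicate 3, adjusted p = 0.00341). Its highest library, wt HIP replicate 4 at 12.3 CPM, was also the library with the most Pou4f1 (14.3 CPM), a marker of the medial habenula, whose part in the value was not tested. Htr1d had 0.724 ± 0.402 CPM in EC and 0.142 ± 0.0922 in HIP of Ts65Dn mice and was higher in EC there (log2 fold change for HIP over EC -2.26, adjusted p = 0.00111, and -2.39 without the mouse labelled Ts65Dn replicate 3, adjusted p = 0.00202), and it did not pass the filter in wt. Htr2b had at most 8 reads in a library and Htr3b, the subunit that pairs with Htr3a, at most 4.

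The libraries held little RNA of serotonin neurons themselves. Fev, their defining transcription factor, was at 0 in 19 of 24 libraries, and Slc6a4, the serotonin transporter, did not exceed 0.259 CPM. Tph2, the rate-limiting enzyme of serotonin synthesis in neurons, had 1.37 ± 0.266 CPM in HIP and 0.718 ± 0.139 in EC of wt mice and was higher in HIP in both genotypes (log2 fold change 0.94 in wt, adjusted p = 0.000973, and 0.78 in Ts65Dn, adjusted p = 0.00547). Of the 9 tested of the 11 synthesis, transport and breakdown genes, 4 were higher in HIP and 1 in EC in each genotype. Over all genes tested 31.0% were higher in HIP and 30.3% in EC in wt, and 26.6% and 25.7% in Ts65Dn. The 5 genes called were also called in Ts65Dn without the mouse labelled Ts65Dn replicate 3, with Tph2 at 0.86. Slc29a4, a low-affinity monoamine transporter, had 28.2 ± 5.83 CPM in HIP and 6.52 ± 1.97 in EC of wt mice (log2 fold change 2.12, adjusted p = 1.62e-06). Slc22a3, another transporter of that kind, was the one higher in EC (log2 fold change -2.71 in wt, adjusted p = 1.72e-05). The HIP libraries ran from 23.0 to 38.8 CPM of Slc29a4 in wt and from 25.2 to 49.5 in Ts65Dn. The summed choroid plexus markers ran from 450.5 to 7624 CPM and from 359.8 to 7895 there. The part of the choroid plexus in the Slc29a4 value was not tested.

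With genotype, 0 of these 9 genes were called in HIP by edgeR and 1 in EC, against 1.04% and 2.50% of all genes tested. In HIP 3 and in EC 4 had an unadjusted p under 0.05, against 14.8% and 19.0% of all genes tested. The gene called in EC was Maoa, which encodes the main serotonin-degrading enzyme. It ran from 49.5 to 55.3 CPM in EC of wt mice and from 43.6 to 47.7 in Ts65Dn, without overlap (log2 fold change -0.18, adjusted p = 0.0475). Maoa was called in 4 of 18 other settings, with a log2 fold change of -0.06 when GC content and length were removed (adjusted p = 0.669), and not without the mouse labelled Ts65Dn replicate 3 (adjusted p = 0.0563).

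The proteins through which the receptors act were mostly not called with genotype. In HIP 0 of 8 Gi/o and potassium channel genes, 0 of 11 Gs and adenylyl cyclase genes, 0 of 9 Gq and phospholipase C genes and 0 of 16 partner and regulator genes were called by edgeR, with 3, 2, 1 and 1 at an unadjusted p under 0.05 (14.8% of all genes tested), and the median log2 fold changes were 0.01 to 0.04. In EC 2 of 8 Gi/o and potassium channel genes, 2 of 11 Gs and adenylyl cyclase genes and 1 of 16 partner and regulator genes were called, against 2.50% of all genes tested. The medians of these 3 lists there were 0.01, -0.01 and 0.02, beside 0.00 over all genes tested.

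In EC Kcnj6, the potassium channel opened by Gi/o-coupled receptors such as Htr1a, was higher in Ts65Dn. The gene lies in the additional segment of chromosome 16. It ran from 26.1 to 33.2 CPM in wt and from 28.8 to 49.0 in Ts65Dn (log2 fold change 0.55, adjusted p = 0.0221). In HIP it ran from 41.65 to 50.63 CPM in wt and from 41.36 to 89.58 in Ts65Dn (log2 fold change 0.54, adjusted p = 0.0953). That HIP value includes the library labelled Ts65Dn replicate 3, with its segment ratio of 1.01, and is not given without it. The EC call was lost without Ts65Dn replicate 1 (0.53, adjusted p = 0.059) or 4 (0.53, adjusted p = 0.0523). Cc2d1a, a repressor of Htr1a transcription, was higher in EC of Ts65Dn mice (log2 fold change 0.26, adjusted p = 0.00922), at 46.4 to 52.0 CPM against 38.4 to 42.4. It was called in 16 of 18 other settings, and with GC content and length removed it was 0.13 (adjusted p = 0.199). Htr1a itself was at 18.7 to 24.5 CPM against 19.0 to 23.4 in the same libraries.

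The other EC calls of these 3 lists were of Pde4b, Gnai1 and Adcy5. Pde4b, a phosphodiesterase that breaks down cyclic AMP, was lower in Ts65Dn (log2 fold change -0.20, adjusted p = 0.020), a call lost without Ts65Dn replicate 1 (adjusted p = 0.0542). Gnai1, a Gi subunit, was also lower (-0.25, adjusted p = 0.0483). Adcy5, an adenylyl cyclase, was higher (0.25, adjusted p = 0.0482), and with GC content and length removed it was 0.14 (adjusted p = 0.304). In the same EC libraries the striatal markers had a median log2 fold change of 0.64, with Drd2 at 3.93 ± 1.89 CPM in Ts65Dn and 1.33 ± 0.548 in wt, and their part in the Adcy5 value was not tested. Gnai1 and Adcy5 were each called in 5 of the 18 other settings. Without the mouse labelled Ts65Dn replicate 3, Gnai1 was not called (adjusted p = 0.0671), while Kcnj6, Cc2d1a, Pde4b and Adcy5 were, with Kcnj6 at a log2 fold change of 0.65.

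Between regions, most of these lists were called in both directions. In wt mice 3 of 8 Gi/o and potassium channel genes were higher in HIP and 5 higher in EC. For the Gs list these counts were 2 and 8 of 11, for the Gq list 4 and 4 of 9, and for partners and regulators 3 and 10 of 16. Over all genes tested 31.0% were higher in HIP and 30.3% higher in EC. The median log2 fold changes (HIP over EC) were -0.22, -0.35, -0.09 and -0.35, beside 0.00 over all genes tested.

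Genes that varied most like each member were sought over the 24 libraries after the 4 group means had been removed, by Pearson's r of log2 CPM over 14963 genes. Since all genes of a library share its depth and tissue sample, r is a description here. For Htr2c the closest genes were Vat1l (r = 0.91), Cldn1 (0.889) and Efcab1 (0.871). For Htr5a the closest was Gpr26, another G protein-coupled receptor (0.852), for Htr7 it was Xkrx (0.852), and for Htr3a it was Dgkg, a diacylglycerol kinase (0.85). For Htr6 it was Lrfn1 (0.821), with Fjx1 (0.819) and Lingo1 (0.804) next. The closest genes of Htr1f (Osbpl6, 0.784), Htr4 (Rsf1, 0.765), Htr1b (Rbm4b, 0.755), Htr2a (Gm37305, 0.751) and Htr1a (Snord91a, 0.718) had lower values.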

How the data were processed

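The deposited files hold, per library, the authors' raw counts of reads per gene (single-end reads, Hisat2 on GRCm38, Ensembl release 99, HTSeq-count). The labels describe a stranded poly-A kit and the submitters' processing notes name bcl2fastq 2.17.1.14 and DESeq2. The strand setting is not given in the sources used here. Tables of the authors' own comparisons were not used. Groups came from the labels, and the numbers in sample titles tie both regions to 1 mouse.

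edgeR 4.0.16 (R 4.3.3) was fitted to all genes left by filterByExpr, with TMM scaling, the quasi-likelihood test and Benjamini-Hochberg adjustment (called under 0.05). Region and interaction fits had the mouse as a block: the deviations of both regions of a mouse correlated at 0.133 to 0.419. Among the EC libraries of its genotype, each HIP library matched that of its own mouse best. Intervals are 95%. Positions are from GENCODE M21, which held 99.6% of the 55385 gene IDs. Promoter windows are from RefSeq (GRCm38.p6). The scripts were tested on simulated data.

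Alternatives were DESeq2 1.42.0, its size factors within edgeR, other filters on low counts, the other block, leaving out each mouse, and, chosen after seeing the data, removal of GC content and length. Beyond the 10 members, list genes were named where called or where their level bears on a member, and for each member the genes most like it over 24 libraries (log2 CPM, prior count 2). Maoa, Kcnj6 and other list genes fell under that rule, and the markers Drd2, Ttr and Pou4f1 were named after their values were seen. The genotype result of the Gq list in EC is not reported here. The members and lists were chosen with earlier results of these data known. Read counts limit the precision of genes near 1 CPM.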

Additional observations from a re-analysis of the deposited data

Results flagged for a closer look

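Within each group of 6 libraries, the level of each of the 10 receptor genes was examined for a library far from the others, by the gap to its neighbour over the range of the group. Of 40 such sets 2 passed Dixon's 95% critical ratio for 6 samples, and chance flags about 1 in 20. Htr1b in EC of wt mice had 1 high library, replicate 3 at 16.1 CPM, with the next at 12.5 (ratio 0.746). Htr1f in EC of Ts65Dn mice had 1 high library, replicate 6 at 4.12 CPM, with the next at 2.76 (ratio 0.635).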

How the results depend on the processing

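The regional calls of Htr4, Htr1a, Htr2a and Htr5a were kept under all 12 other settings in each genotype, and that of Htr7 under all 12 in wt and 11 of 12 in Ts65Dn. With GC content and length removed, Htr1f was also called in wt (-0.47, adjusted p = 0.0269), and with no filter on low counts Htr6 was called in Ts65Dn (-0.37, adjusted p = 0.0339). The number of receptor genes called between regions was 5 to 5 in wt and 4 to 6 in Ts65Dn when 1 mouse was left out.

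Calls between genotypes moved more. In HIP the test called 181 genes, against 662 by DESeq2, 75 with GC content and length removed and 54 to 318 without 1 mouse (318 without the mouse labelled Ts65Dn replicate 3). In EC it called 426, against 1141 by DESeq2, 275 with no filter, 141 with GC content and length removed and 90 to 685 without 1 mouse. Of the receptor genes 1 was called in HIP, 0 with GC content and length removed and 0 to 1 without 1 mouse, and in EC 0 were called, 1 by DESeq2 and 0 to 1 without 1 mouse. The interaction called 0 genes, and 37 with no filter, none of them a receptor gene described here. The causes were not tested.

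The replicate numbers do not pair mice across genotypes: same-numbered libraries correlated at -0.26 to 0.235, and in 2 of 12 cases the own number was the best match. With the replicate block 29 genes were called in HIP and 36 in EC, and 0 of the receptor genes in HIP (Htr2a -0.40, adjusted p = 0.0746). Without the replicate block of the mouse, the 5 regional calls were kept in each genotype.

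The receptor genes' log2 fold changes turned sign in 42 of 780 other fits, each time for a value that was not called in either fit. With GC content and length removed these were Htr1f in HIP between genotypes (0.05), Htr2a and Htr7 in EC (0.02 and -0.01) and Htr1b between regions (-0.08 in wt, -0.07 in Ts65Dn). With the replicate block it was Htr2c in HIP (-0.02), and Htr3a between regions in Ts65Dn was 0.01 with no replicate block and 0.0031 with at least 10 counts in every library. When 1 mouse was left out, the genotype difference in HIP ran from -0.02 to 0.07 for Htr1a, -0.11 to 0.05 for Htr1f and -0.16 to 0.23 for Htr2c, and in EC from -0.06 to 0.09 for Htr7. The regional difference ran from -0.03 to 0.06 for Htr1b in wt, and in Ts65Dn from -0.05 to 0.12 for Htr1b, -0.33 to 0.20 for Htr2c and -0.06 to 0.06 for Htr3a. The interaction ran from -0.12 to 0.03 for Htr1a, -0.08 to 0.09 for Htr1b, -0.03 to 0.28 for Htr1f and -0.53 to 0.01 for Htr2c.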
